A study of Andrias davidianus with 4 samples.

Results

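The 150 skin unigenes with the steadiest unique counts in the Chinese giant salamander, Andrias davidianus, were examined as candidate reference transcripts. A unigene is an assembled transcript sequence, and the deposited tables list 110708 of them by identifier and length, with no gene name. Unique counts were scaled to CPM, the count in 1000000 counts, by the column sum of each library. The unigenes with a mean of 50 to 500 CPM over the 4 libraries numbered 1970. None of these belonged to the 200 highest, whose lowest mean was 603 CPM. Of the 1970, the 150 with the smallest ratio of highest to lowest CPM over the 4 libraries were taken, which is 7.61%. All 150 passed the expression filter of the test between the groups. The members were thus chosen by their unique counts in all 4 libraries, so their small spread is a description and was not tested.

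RNA came from the skin of this large aquatic amphibian, with 2 libraries of the wild type genotype and 2 of the albino type. The labels give no treatment, age, sex, allele or origin of the albino animals, and do not say whether the libraries of a group came from separate animals. Depth was close, from 16854176 unique counts in wild type replicate 1 to 17547197 in albino replicate 2. The labelled tissue could not be checked against marker genes, since no unigene carries a name, and unigene sequences were not used here.

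Reference transcripts are the yardstick of expression measurement. In quantitative PCR, the level of a target is divided by that of transcripts assumed to be steady across the samples, classically ones that serve the upkeep of every cell, such as cytoskeletal, ribosomal and glycolytic genes. A good reference has to be steady, long enough to hold an amplicon and read at a level like that of the targets, and its reads should not be shared with a near-identical copy. Skin is a demanding tissue for this purpose, because it mixes keratinocytes, gland cells, fibroblasts and pigment cells whose proportions can change. In bulk skin RNA, fewer cells of a type and less RNA per cell cannot be told apart.

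The member with the smallest spread was UniGene_5158, 2759 bases long. Its unique counts were 1472 and 1487 in wild type against 1477 and 1501 in albino. Scaled to the column sums, these were 87.3 and 86.2 CPM in wild type against 85.1 and 85.5 CPM in albino, a ratio of highest to lowest of 1.03. Both albino values lay below both wild type values, although by little. UniGene_19320, 2188 bases long, came next with 139 and 142 CPM in wild type against 141 and 136 CPM in albino, a ratio of 1.04 with overlapping groups. UniGene_57617, 930 bases long, had 75.5 and 75.3 CPM in wild type against 72.2 and 74.0 CPM in albino, a ratio of 1.04, and its albino values were the lower ones.

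The limit that separated the members from the rest was narrow. UniGene_144578, the last one taken, had a ratio of 1.136, with 102 and 89.7 CPM in wild type against 92.1 and 101 CPM in albino. UniGene_61839, the first one left out, had a ratio of 1.137, with 55.7 and 57.1 CPM in wild type against 61.6 and 54.2 CPM in albino. In the first the wild type replicates lay farther apart than the group means did, and in the second the albino replicates did. The median ratio was 1.10 among the members and 1.52 among the 1820 eligible unigenes not chosen, and it was 1.55 among the 200 highest. Of the 1820, 164 had a ratio of at most 1.2, so the members form the edge of a continuous distribution, without a gap.

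**Figure D1:**
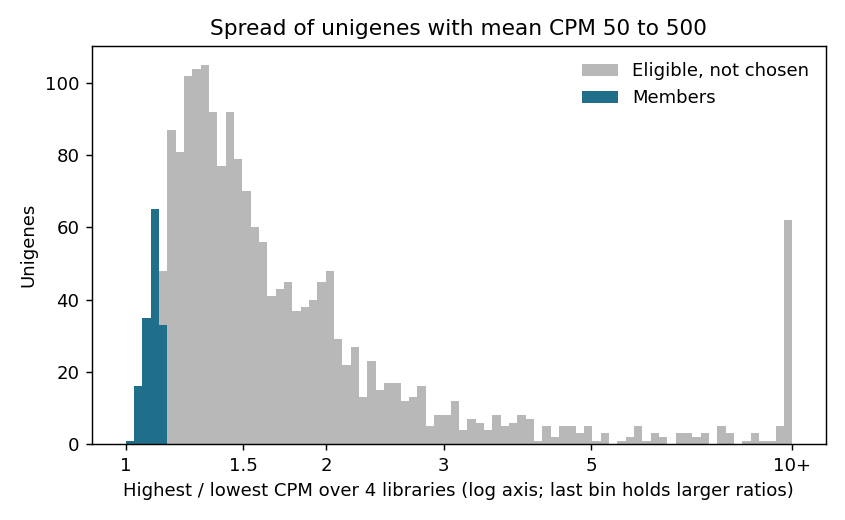
Histogram of the ratio of highest to lowest CPM over the 4 libraries, on a log axis, for the 150 members (blue) and the 1820 eligible unigenes not chosen (grey). The members fill the left edge up to 1.136 and the grey bars go on from 1.137 without a gap; ratios of 10 or more share the last bin, and the 2 unigenes with a library at 0 counts are left out.

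Part of the remaining spread was of the size of counting error. A member had a median coefficient of variation (CV) of 4.26% over the 4 libraries, whereas the Poisson counting error of its count in a single library was a median of 2.47%. The lowest and highest counting error among the members were 1.09% and 3.40%. A chi-square statistic per degree of freedom, which is near 1 for counting error alone, was 3.25 in the median member and 67.4 in the median eligible unigene not chosen. It was at most 1 in 13 of the 150 members, among them UniGene_5158 at 0.191. The rule picked small values of this statistic, which holds for the column-sum scale alone. On the TMM scale, described further on, UniGene_5158 had a ratio of 1.15 with a counting error of 2.60%. Counting error was smallest for UniGene_21667, the member with the most reads, at 488 CPM on average over 2050 bases. Its counts from 7996 to 8840 gave a chi-square statistic of 12.5, so its libraries differed by more than counting error despite a ratio of only 1.09.

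Lengths did not take part in the choice. The members ran from 450 bases (UniGene_162000) to 14422 bases (UniGene_33559), with a median of 2741.5 and quartiles of 1929 and 4468. The median was 2623.5 bases among the eligible unigenes not chosen and 1623 among the 200 highest, against 544 over the 96000 unigenes with any unique count. The members thus had lengths close to those of other unigenes of like CPM. Of the 150, 12 were shorter than 1000 bases and 30 longer than 5000. With the eligible unigenes cut by length into 4 bins of like size, the share chosen was 5.26% in the shortest bin of up to 1661 bases, 9.37% and 7.32% in the middle bins, and 8.52% in the longest bin, from 4108 bases. The median CPM ratio in the shortest bin, members and others together, was 1.58, against 1.45 to 1.47 in the other bins. These shares are descriptions across unigenes, which are not independent replicates.

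The CPM level showed little tie to the choice. The members had a median mean level of 95.1 CPM, with quartiles of 65.9 and 152, against 85.8 CPM among the eligible unigenes not chosen. With 4 bins by CPM, the share chosen was 7.30% and 6.30% in the lower bins and 8.74% and 8.11% in the upper ones. At the low end, UniGene_115592, 2101 bases long, was read at 50.8 and 52.2 CPM in wild type against 48.2 and 49.1 CPM in albino. Its groups did not overlap. The members together held 1.94% and 1.96% of the unique counts in wild type against 1.93% and 1.98% in albino. Their summed CPM differed by a ratio of 1.02 between the lowest and the highest library.

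FPKM, the authors' value per kilobase of transcript, places the members on a scale on which unigenes of different length can be compared. The median FPKM of the members was 34.4 and 34.1 in wild type against 36.8 and 37.2 in albino. A member's mean FPKM ran from 4.57 to 583. The highest was that of UniGene_109602, singled out further on, where its level is called uncertain. CPM counts reads whatever the length, so that long members stood low on the FPKM scale. In the longest of the 4 length bins the members' median FPKM was 15.5, and in the shortest it was 98.2. The longest member, UniGene_33559, was read at 108 and 103 CPM in wild type against 99.8 and 98.6 CPM in albino, but its FPKM was 8.06 and 7.67 in wild type against 6.80 and 6.72 in albino. The shortest, UniGene_162000, was read at 91.7 and 91.4 CPM in wild type against 84.6 and 93.3 CPM in albino. Its FPKM was 286 and 294 in wild type against 274 and 298 in albino, so that a like number of reads stood for a far higher level per base. Across the 150 members, Pearson's r between log2 length and log2 mean FPKM was -0.75 (Spearman's rho -0.73), and between log2 length and log2 mean CPM it was -0.01 (rho 0.01). The first relation is built into a value per kilobase.

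**Figure D2:**
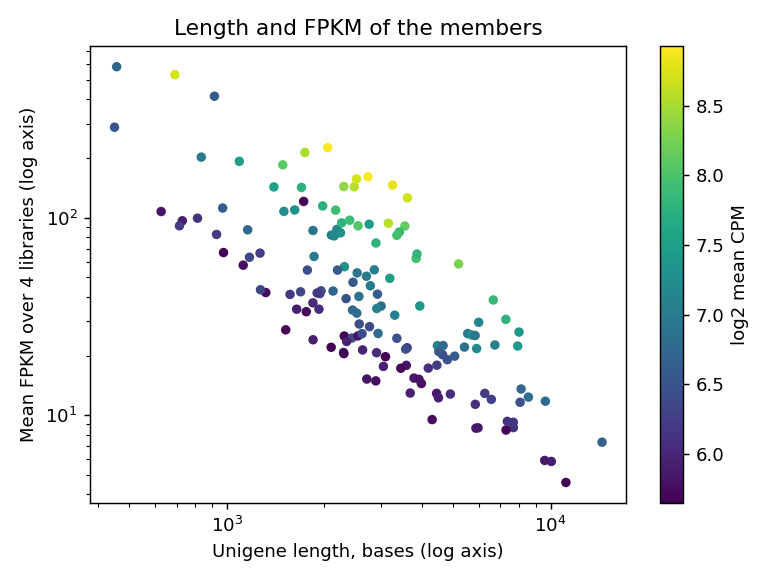
Mean FPKM over the 4 libraries against unigene length for the 150 members, both on log axes, coloured by log2 mean CPM. FPKM tends to fall with length, and its means run from 583 down to 4.57. At a like length it tends to be higher for members with more CPM, with exceptions such as UniGene_53929.

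By FPKM the members were also among the steadier unigenes. The median ratio of highest to lowest FPKM was 1.14 among the members, with quartiles of 1.10 and 1.20, and 1.56 among the eligible unigenes not chosen. The FPKM ratio was at most 1.2 in 117 of the 150 members and in 172 of the 1820 others. It was larger than the CPM ratio in 109 of the 150 members (72.7%) and in 950 of the 1820 others (52.2%). Members were chosen for a small CPM ratio, which favours a larger ratio by any other measure. UniGene_57042, 2129 bases long, had the steadiest FPKM as deposited, with 43.0 and 43.4 in wild type against 42.0 and 42.1 in albino, a ratio of 1.03. With FPKM rescaled to the same sum in each library, its ratio was 1.13, against 1.10 for UniGene_21667. On the TMM scale, the ratio of UniGene_57042 was 1.20. Deposited FPKM values carry 3 significant digits, which limits how finely such ratios can be read. FPKM and unique counts come from the same libraries, so this is not an independent check.

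At the other extreme stood UniGene_167106, 1271 bases long. Its unique counts gave 79.9 and 79.1 CPM in wild type against 75.2 and 84.7 CPM in albino, a ratio of 1.13 with overlapping groups. Its FPKM was 28.4 and 28.0 in wild type against 55.0 and 61.7 in albino, a ratio of 2.20. By FPKM the groups lay far apart and the replicates close together, whereas by unique counts they overlapped. UniGene_40320, singled out after its values were seen, was the next with an FPKM ratio of 1.72, at 32.8 and 31.7 in wild type against 47.7 and 54.5 in albino. For the remaining 148 members the FPKM ratio was at most 1.5.

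**Figure D3:**
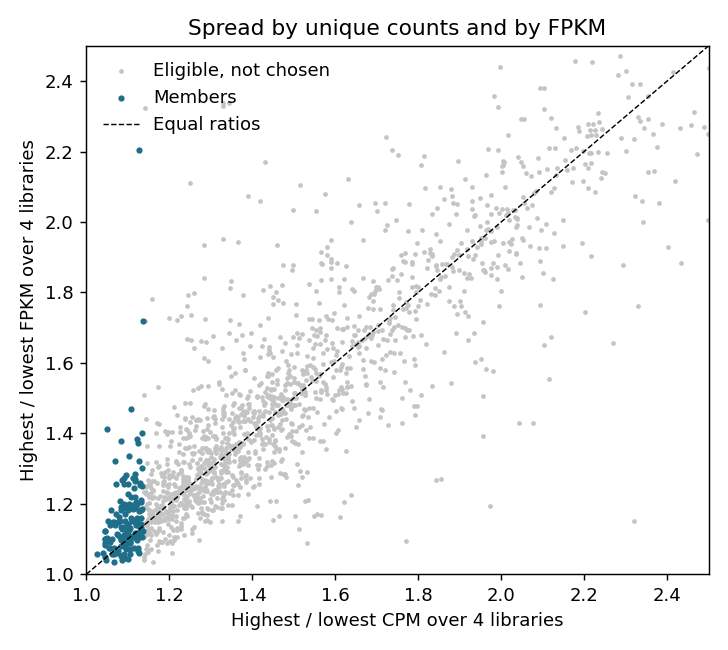
Ratio of highest to lowest FPKM against the ratio of highest to lowest CPM over the 4 libraries, with members in blue, eligible unigenes not chosen in grey and equal ratios on the dashed line. Most members stay under an FPKM ratio of 1.2, and UniGene_167106 stands apart at 2.20; 348 of the 1820 grey unigenes lie beyond the axes, which end at 2.5, or have no defined ratio.

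The gap between the measures ran along the groups. FPKM times length in kilobases, divided by CPM, would be the same for all unigenes if both rested on the same reads and lengths. In the members, the log2 of this factor differed between the wild type libraries by a median of 0.011 and between the albino libraries by a median of 0.0071. Between the group means it differed by a median of 0.087. A difference over 0.1 on the log2 scale was found between the groups in 65 of the 150 members and within either group in 0. The factor was the higher one in albino in 63 members and the lower one in 87. Among the eligible unigenes not chosen it differed between the groups by a median of 0.089, and in 825 of the 1820 by over 0.1, so this gap was not particular to the members. The factor of UniGene_167106 was lower by 1.04 (log2) in wild type than in albino. Whether the preparation or the calculation of FPKM differed between the groups cannot be told apart from genotype.

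A few members had far more FPKM than their unique counts would give. In 3 of the 150 (2%), the factor was over 1 on the log2 scale in all 4 libraries. Its median over the members was from 0.01 to 0.03. The same held for 22 of the 1820 eligible unigenes not chosen (1.21%), so a factor over 1 was not particular to the members. The 3 members were singled out after their values were seen. UniGene_53929, 1728 bases long, had 49.8 and 52.6 CPM in wild type against 47.2 and 52.5 CPM in albino, and FPKM of 125 and 127 in wild type against 110 and 123 in albino. Its FPKM was 4.03 to 4.34 times the CPM per kilobase. UniGene_7221 had 3.47 to 4.59 times and UniGene_109602, 457 bases long, 2.38 to 2.56 times. How FPKM was computed is not known here, so whether shared reads or the length used raised the factor was not tested, and the levels of these 3 are uncertain.

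Between albino and wild type, none of the members passed the test that many other unigenes passed. The rule had selected against such differences, so nothing is read from it. With edgeR's quasi-likelihood test over 37893 tested unigenes, 0 of the 150 members and 12531 of all tested unigenes (33.1%) had an adjusted p under 0.05. At an unadjusted p under 0.05 there were also 0 members, and DESeq2's Wald test called 0 at either level. With 1 library left out, the calls over all unigenes numbered 3690 and 3934 without wild type replicate 1 and 2, and 16604 and 15134 without albino replicate 1 and 2. In these fits the lone library is assumed to vary like the pair of the other group. No member had an adjusted p under 0.05 in any of the 4, and 2 had an unadjusted p under 0.05 without albino replicate 1. The lowest edgeR adjusted p of a member was 0.257. The fitted log2 change, albino minus wild type, ran from -0.21 to 0.12 among the members with a median of -0.05, and over all tested unigenes its median was -0.0045. A p above the threshold does not show equal levels. The 95% interval of a member's log2 change reached a median of 0.316 to either side, and it lay within 0.5 of 0 in 149 of the 150 and within 0.25 in 0. Over all tested unigenes it lay within 0.5 in 2085 of 37893 (5.50%). The rule chose members with changes near 0, so their count within 0.5 follows in large part from the choice. The smallest reach over all tested unigenes was 0.279, so no interval could lie within 0.25. For UniGene_5158 the fitted change was -0.06 with an SE of 0.13, and the interval ran from -0.38 to 0.25 (n = 2 per group, edgeR adjusted p = 0.737). The SE borrows from the spread of all unigenes and exceeds the scatter of the chosen ones.

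The small differences left between the groups went both ways, in shares that depended on the scale. On the TMM scale of the test, the fitted log2 change was below 0 in 110 of the 150 members (73.3%) and above 0 in 40. Its median was -0.05 among the members and -0.0045 over all tested unigenes, whose share below 0 was not counted. By column sum, the members' median log2 difference, albino minus wild type, was -0.011. TMM moves every unigene of a library by the same factor, so it shifts members chosen near 0 all together. By CPM, 65 of the 150 members had groups that did not overlap (43.3%), 28 with both albino libraries higher and 37 with both lower. Over all tested unigenes the shares were 68.5% in either direction, 35.5% higher and 33.0% lower. By FPKM as deposited, groups did not overlap for 99 members (66.0%), 43 higher in albino and 56 lower, against 69.6%, 39.1% and 30.5% of all tested unigenes. Once FPKM was rescaled to the same sum of 1000000 in each library, both albino libraries were lower in 90 members (60.0%) and higher in 23 (15.3%). Among the eligible unigenes not chosen, 693 of 1820 (38.1%) were lower and 776 (42.6%) higher on that scale. Shares over all tested unigenes were not counted after rescaling. The deposited FPKM values sum to 790952 and 782379 in wild type and to 848371 and 854350 in albino. Rescaling thus lowers both albino libraries against wild type for every unigene. The sizes of these shares depended on the scale. On each scale named here more members were lower in albino than higher. The rule had used these counts, and every scale comes from the same 4 libraries, so nothing is read from this direction.

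By CPM, replicate 1 of each group was more often the lowest library and replicate 2 more often the highest. The highest of the 4 CPM values fell in albino replicate 2 and in wild type replicate 2 for 49 members each, in wild type replicate 1 for 34 and in albino replicate 1 for 18. The lowest fell in albino replicate 1 for 53 (35.3%), in wild type replicate 1 for 48 (32.0%), in wild type replicate 2 for 26 and in albino replicate 2 for 23. Among the eligible unigenes not chosen, the lowest fell in albino replicate 1 for 31.6% and in wild type replicate 1 for 30.5%. Their highest fell in albino replicate 2 for 43.0% and in wild type replicate 2 for 23.4%, against 32.7% of members in each. This order belongs to the column-sum scale. On the TMM scale the highest fell in albino replicate 1 for 69 members and in wild type replicate 1 for 58. It fell in wild type replicate 2 for 23 and in albino replicate 2 for 0.

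Steadiness was defined against the column sum, and the list depended on that scale. TMM, edgeR's trimmed mean of log ratios, sets the scale by the bulk of the unigenes in place of the total. It gave factors of 0.968 and 1.001 for the wild type libraries, 0.942 for albino replicate 1 and 1.10 for albino replicate 2. On the TMM scale, the median member stood at 103% and 100.4% of its own mean in the wild type libraries, at 104% in albino replicate 1 and at 92.1% in albino replicate 2. Against the column sum, TMM moves albino replicate 2 down relative to albino replicate 1 by a ratio of 1.159. The rule had kept every member within a ratio of 1.136, so that all 150 had to be lower in albino replicate 2 than in albino replicate 1 on the TMM scale. Albino replicate 2 was the lowest of the 4 libraries in 132 of them. The median ratio of highest to lowest level rose from 1.10 to 1.16, and to 1.19 with DESeq2's size factors. The 200 highest unigenes held 51.4% and 50.9% of the unique counts in the wild type libraries, 52.7% in albino replicate 1 and 46.8% in albino replicate 2. Their part in the difference between the scales was not tested. With the 200 highest left out of the column sum, an alternative added after seeing the data, the median member stood at 93.7% of its mean in albino replicate 2 and the median ratio was 1.13, which follows from the sums by arithmetic.

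**Figure D4:**
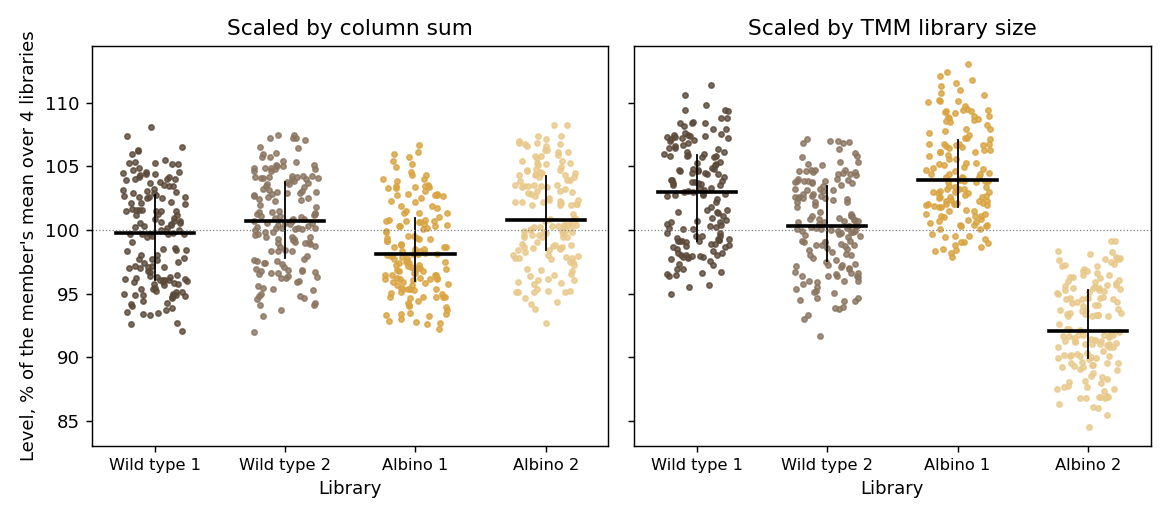
Level of each of the 150 members in each library as a percentage of its own mean over the 4 libraries, scaled by the column sum (left) and by the TMM library size (right); points are members, thick lines medians and thin lines quartiles. On the left the medians lie from 98.1% to 100.8%, and on the right albino replicate 2 drops to 92.1%.

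Applying the same rule on the TMM scale kept 59 of the 150 members, and on the DESeq2 scale 44. All 44 were also among those kept on the TMM scale and with the 200 highest left out of the column sum, which kept 78. The steadiest members by column sum were not among the 44. UniGene_5158 had a ratio of 1.15 on the TMM scale, UniGene_19320 of 1.21 and UniGene_57617 of 1.15. UniGene_167106, the one with the FPKM ratio of 2.20, was among them with a TMM ratio of 1.06, and so was the shortest member, UniGene_162000, at 1.11. Ranking by FPKM rescaled to the same sum kept 48 members. Rules on the same scale chose nearly the same list, as ranking by the CV kept 142 and by the SD of log2 CPM 143. With 1 library left out, the rule kept 82 members without albino replicate 1, 81 without albino replicate 2, and 103 and 106 without wild type replicate 1 and 2.

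**Figure D5:**
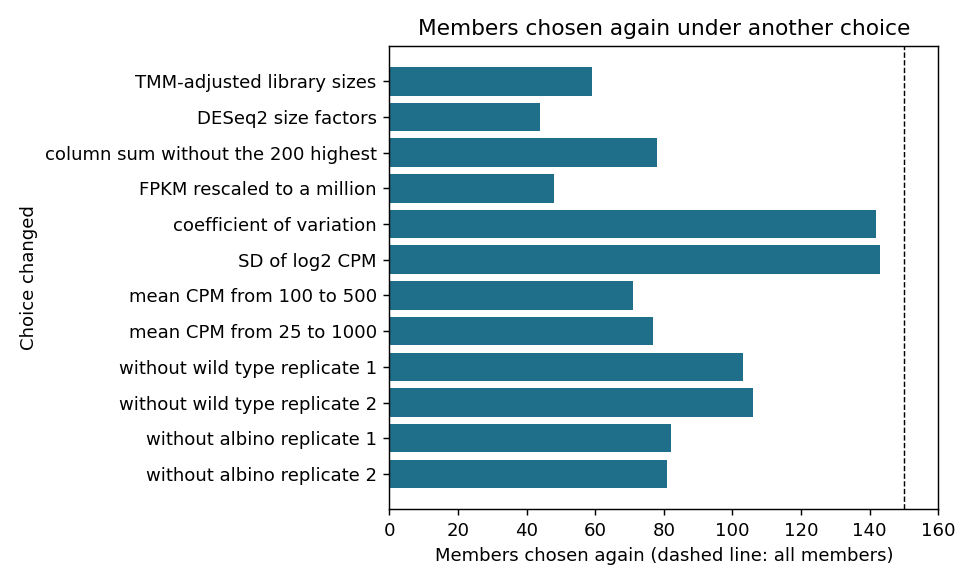
Number of the 150 members that the rule chose again when 1 choice was changed; the dashed line marks all members. Other measures of spread kept 142 and 143, whereas other scales and rescaled FPKM kept 44 to 78. The windows of level kept 71 and 77, which follows from their changed set of candidates. The bars without a library lie between 81 and 106.

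The members chosen under all 4 scales and by rescaled FPKM as well numbered 16. They ran from 57.1 to 336 CPM, from 1093 to 5882 bases and from 8.61 to 193.5 in mean FPKM. Their FPKM ratios, from 1.05 to 1.20, were kept small by the choice on rescaled FPKM. The 2 with the smallest CPM ratio were singled out after their values were seen. UniGene_156228, 2298 bases long, had 5630 and 5784 unique counts in wild type against 5682 and 6068 in albino, or 334 and 335 CPM in wild type against 327 and 346 CPM in albino. Its FPKM was 141 and 140 in wild type against 143 and 153 in albino. UniGene_37885, 1093 bases long, had 174 and 178 CPM in wild type against 177 and 189 CPM in albino. Its FPKM was 192 and 196 in wild type against 188 and 198 in albino. By CPM, albino replicate 2 was the highest library for both unigenes, as for most of the 16, and the groups of both overlapped. The TMM and DESeq2 scales move albino replicate 2 down, so choosing on them favours members high in it by CPM. By FPKM the groups of UniGene_37885 overlapped, whereas both albino values of UniGene_156228 lay above both wild type values. The files name no gene for these unigenes, so what they encode is not given here, and 2 libraries a group cannot show how steady they are in other animals.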

How the data were processed

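Skin RNA of wild type and albino salamanders was sequenced after removal of ribosomal RNA, with a strand-keeping library kit, per the labels' protocols. Trimmomatic is named without a version in the submitters' processing notes. For assembly, alignment and counting no tool is named: not given in the sources used here, and each library has its own table. The deposited counts are whole-number unique counts per unigene, not normalized, per the file headers. The authors' FPKM, named so in the file headers, carries 3 significant digits. The deposited length in bases was used as listed.

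CPM is the count over the column sum times 1000000. The members and the rule were chosen with earlier results of these data known. Identifiers printed by rule are the 3 steadiest members, the last one inside and the first one outside the limit, and the extremes of length, mean CPM and FPKM ratio; others are marked where they appear. Groups were compared with edgeR (version 4.0.16 in R 4.3.3) by quasi-likelihood on all 4 libraries with TMM, group as the only factor, its expression filter (minimum count 10, minimum total 15) and Benjamini-Hochberg adjustment over 37893 unigenes. It was also run on counts simulated from its own fitted spread, which cannot check that spread. The outcome is not given here and nothing is read from it. Alternatives were DESeq2 1.42.0, other filters, thresholds and scales, a replicate block and leaving out each library. Every scale was set to the same mean library size. The p-values measure only the spread between these libraries, which may be technical. Sequences and gene names were not used here.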

Additional observations from a re-analysis of the deposited data

How the results depend on the processing

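Which unigenes count as steadiest depended on the scale. Of the 150 members, the rule chose 59 again with TMM-adjusted library sizes, 44 with DESeq2 size factors, 78 with the 200 highest left out of the column sum (added after seeing the data), 48 with rescaled FPKM, 71 from 100 to 500 CPM and 77 from 25 to 1000 CPM. The narrower window kept all 71 members with a mean of at least 100 CPM. The wider one added candidates to the same ranking, so both drops follow from the window by construction. Without 1 library it chose 81 to 106, with 82 without albino replicate 1 and 81 without albino replicate 2. The median ratio of highest to lowest level was 1.16 with TMM, 1.19 with DESeq2 size factors and 1.08 to 1.09 without 1 library. Leaving out a library can only keep or lower a member's ratio, so the lower medians without 1 library follow by construction. The median FPKM ratio was 1.17 after rescaling. A member's ratio on each scale follows by arithmetic from the library scales. Why those scales differ between the libraries was not tested. No setting with all 4 libraries called a member between the groups, including the replicate block, where 0 of 150 were called. The rule had selected against such calls, so nothing is read from this. The main setting called 12531 of 37893 tested unigenes (33.1%). Over all tested unigenes the 12531 calls became 5177 at an adjusted p under 0.01, 7492 with a minimum count of 50, 7821 with DESeq2's Wald test, 9022 with the replicate block and 3690 to 16604 without 1 library (3690 without wild type replicate 1, 3934 without wild type replicate 2). Unigene by unigene, same-numbered libraries did not deviate together (r = -0.13 across unigenes). This r leaves out a shift common to all unigenes, so it does not bear on one. Counting error of 1.09% to 3.40% per library limits how finely the members can be ranked by spread.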
